A study of Mus musculus with 4 samples.

Results

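Conventional dendritic cells and their precursors were looked for among bone marrow mononuclear cells by a rule on measured UMIs, where a UMI is a unique molecular identifier and counts one captured transcript. Of 39167 cells that passed the filters on genes and mitochondrial UMIs, 265 met the rule and are called the members. A member had at least 10 UMIs on the MHC class II genes H2-Aa, H2-Ab1, H2-Eb1 and Cd74 together, at least 1 UMI on Flt3, Zbtb46, Xcr1, Clec9a or Cd209a, no UMI on Cd79a, Cd79b or Siglech, and at most 2 on C1qa, C1qb and C1qc together. The members were therefore selected on the measured levels of 15 genes in the same cells, and the levels of those genes are given below as a description. The fit between genotypes held 7 of them among all genes, and nothing is read from their values there.

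The study asked how loss of Toll-like receptor 9 (TLR9), an endosomal receptor for CpG DNA, changed the marrow. Cells came from C57BL/6 mice that were either TLR9-/- or wildtype (WT), with 2 mice and 2 libraries per genotype and each experiment holding 1 mouse of each genotype. The knockout is germline, so every cell type of a TLR9-/- mouse carried it, and the labels give neither the age nor the sex of these mice. Femur and tibia marrow was flushed, the mononuclear layer was taken from a Ficoll gradient, and 5′ transcript ends were sequenced on the 10x Chromium platform.

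Conventional dendritic cells take up antigen and present its peptides to T cells on MHC class II. The cDC1 subset, which depends on IRF8 and BATF3 and carries XCR1 and CLEC9A, is known for cross-presenting antigen to CD8 T cells, whereas the cDC2 subset, marked in mice by SIRPA and often by CD209A or CLEC10A, mainly primes CD4 T cells. Both arise in bone marrow from FLT3-dependent precursors that leave for the tissues, so few differentiated cells are normally found in the marrow itself.

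As deposited, the TLR9-/- libraries held 50531662 and 64197195 UMIs and the WT libraries 31786895 and 41713367. The libraries held 10781 and 8918 filtered cells from TLR9-/- mice and 10573 and 8895 from WT mice. TLR9-/- mice gave 96 and 65 of the members, and WT mice gave 57 and 47. Their median depth was 3238.5 and 4564 UMIs in TLR9-/- libraries 1 and 2 and 2937 and 3384 UMIs in WT libraries 1 and 2, and their summed UMIs were 405542, 370245, 194423 and 240625 in the same order. No barcode was shared between members of different libraries, although 797 barcodes occurred in more than 1 library among all filtered cells and 6 members had a barcode that a filtered cell of another library also had.

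Tlr9 itself was rarely captured. In the members, TLR9-/- libraries 1 and 2 held 1 and 0 Tlr9 UMIs and WT libraries 1 and 2 held 2 and 1. In plasmacytoid dendritic cells, the main Tlr9-expressing dendritic cells, 1.73% and 2.00% of TLR9-/- cells had a Tlr9 UMI against 4.86% and 3.90% of WT cells. In Ms4a1 B cells the shares were 0.842% and 0.578% against 1.77% and 2.43%. The TLR9-/- libraries were lower in both populations without overlap, but Tlr9 transcript was still counted there. The sources used here do not say which part of the gene (chr9:106222598-106226883, plus strand) the allele lacks, so the count of Tlr9 reads does not settle the genotype of a library.

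The MHC class II genes that admitted the members took up a small part of their UMIs. A member had a median of 128.5 and 75 UMIs on the 4 rule genes in TLR9-/- libraries 1 and 2 and of 61 and 59 in WT libraries 1 and 2, and these genes took 3.13%, 2.14%, 2.71% and 1.68% of the members' UMIs. H2-Ab1, the beta chain of I-A, was at 3926 and 2841 CPM (the summed UMIs of a gene scaled to a common total per library) in the TLR9-/- members and at 3714 and 2743 CPM in the WT members. Both genotypes thus had 1 higher and 1 lower library, and their values overlapped. Ms4a1 B cells, which also present on MHC class II, were at 1174 CPM of H2-Ab1 and classical monocytes at 22.2 CPM on average.

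The promoters of H2-Aa and H2-Eb1 are shown because their genes opened the rule and share a regulatory element: the Y box, letters CTGATTGG, to which NF-Y binds in MHC class II promoters. The sequences are from RefSeq on GRCm38.p6, written 5′ to 3′ on the strand of the gene, with the Y box in capitals. The window of H2-Aa is chr17:34287807-34287934 (minus strand), with the box starting 51 bases before the annotated start, and that of H2-Eb1 is chr17:34305745-34305872 (plus strand), with the box starting 62 bases before it.
H2-Aa: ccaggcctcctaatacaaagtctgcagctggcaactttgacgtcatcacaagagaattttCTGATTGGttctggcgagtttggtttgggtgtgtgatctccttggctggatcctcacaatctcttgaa
H2-Eb1: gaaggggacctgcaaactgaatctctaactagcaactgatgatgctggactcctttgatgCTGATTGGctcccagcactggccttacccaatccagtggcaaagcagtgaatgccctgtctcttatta
Of 32851 RefSeq promoter windows of 300 bases, from 250 before to 50 after the start, 4.10% held these letters on either strand. A match describes the letters and not a bound site.

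The 5 entry genes were unequally caught. Cd209a, a C-type lectin of cDC2 and monocyte-derived cells, was seen in 67.2% of the members, Flt3, the receptor for the dendritic cell growth factor FLT3L, in 49.8%, and Clec9a, the cDC1 receptor for dead cells, in 23.4%. Zbtb46, a transcription factor of conventional dendritic cells, was seen in 8.30% and Xcr1, the cDC1 receptor for XCL1, in 2.64%. Free RNA in droplets can put such UMIs in any cell, and among Ms4a1 B cells, whose library medians lay between 1246 and 1811 UMIs, the shares were 1.00% for Cd209a, 1.68% for Flt3, 0.811% for Clec9a, 0.309% for Zbtb46 and 0 for Xcr1. The members, with library medians between 2937 and 4564 UMIs, were thus above B cells for each gene, and the rule had chosen them on these genes. A single entry UMI carried 76 members (28.7%), whereas 148 (55.8%) had 3 or more.

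On the near side of the MHC class II limit, the 18 members with 10 to 14 MHC class II UMIs had Cd209a in 55.6%, Flt3 in 61.1% and Cst3 at 6638 CPM, and the 42 cells with 5 to 9 UMIs that met the rest of the rule had Cd209a in 42.9%, Flt3 in 76.2% and Cst3 at 4647 CPM. The next 36 members, with 15 to 29 UMIs, had Cd209a in 50%, Flt3 in 66.7% and Cst3 at 5453 CPM, and the 211 with 30 or more had Cd209a in 71.1%, Flt3 in 46.0% and Cst3 at 9398 CPM. Below 5 UMIs stood 1193 cells with a median of 6926 UMIs, with Cd209a in 15.2%, Cst3 at 1701 CPM and 17.9% of them with Kit, the receptor for stem cell factor. Kit was seen in 6.79% of the members, at 4, 5, 5 and 6 UMIs per library, so the rule reached few cells with this progenitor receptor.

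The genes that most set the members apart from all other filtered cells, rule genes aside, included a few of the lineage. Of 20 leading genes, 3 were on the lists for conventional dendritic cells, cDC1 or cDC2 (Batf3, Clec10a and Cst3) and 12 were on no list. Among the 20, taken by the ratio of CPM and described with no test, Batf3, the AP-1 family factor needed for cDC1, came first at 119 ± 14.1 CPM (SD, n = 4) against 2.23 CPM elsewhere. H2-DMb1, which loads peptides on MHC class II, was at 485 ± 111 CPM against 27.7, and Clec10a, a lectin of cDC2, at 203 ± 54.9 against 21.8. Cst3, the protease inhibitor cystatin C and a long-used marker of dendritic cells, stood at 8760 ± 1982 CPM against 1083. Clec4a3, a C-type lectin, Fcgrt, the neonatal Fc receptor, Cx3cr1, the fractalkine receptor, and Ccr2, the receptor through which monocytes leave the marrow, were also among them, at 6.80 to 9.01 times the level of the other cells. Classical monocytes held them at 57.1, 34.6, 50.4 and 381 CPM in that order, against 114, 112, 136 and 646 CPM in the members. All 20 were higher in the members than in the other cells in 4 of 4 libraries, which their choice by this ratio in the same libraries made likely.

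**Figure D1:**
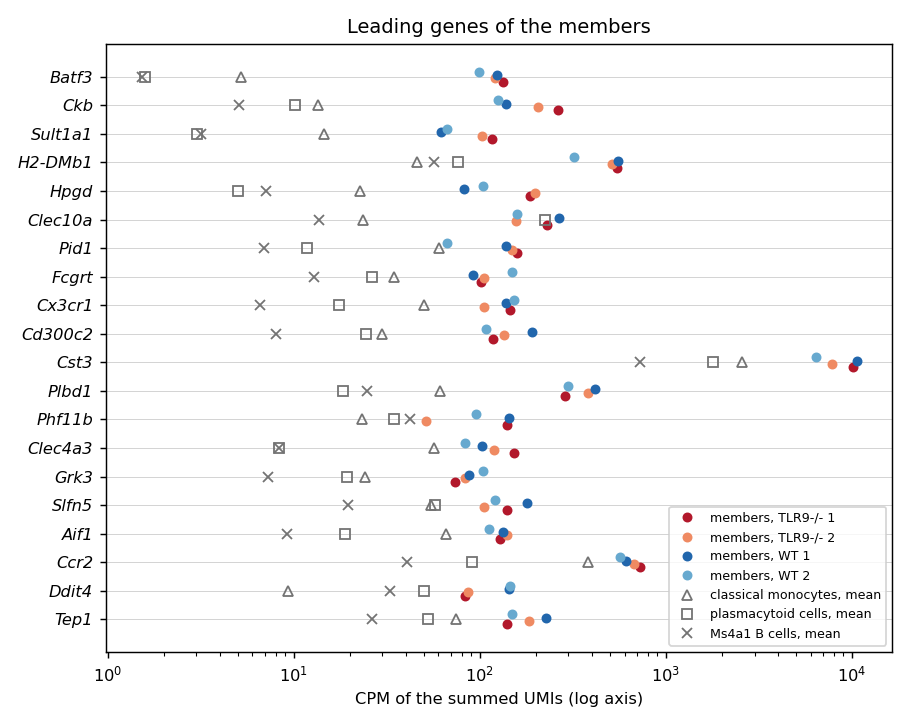
CPM (log axis) of the 20 leading genes in the members of each library (colored points), with the mean over libraries in classical monocytes, plasmacytoid dendritic cells and Ms4a1 B cells (gray symbols). The member points of most genes lie close together and above the gray symbols, whereas Clec10a in plasmacytoid dendritic cells (225 CPM) falls among them.

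The label was compared with marker lists and clusters. Detection of a list's genes in the summed members told little, since all 10 neutrophil, all 13 macrophage and all 8 erythroid genes were detected as well. Of 14 precursor genes all were detected, and the most abundant was Ly6c2 at 1136 CPM, which classical monocytes had at 4680 CPM. The precursor list summed to 2338 and 2839 CPM in TLR9-/- members and to 2124 and 3013 CPM in WT members, below the 7369 CPM of classical monocytes, the 8673 of plasmacytoid dendritic cells and the 6226 of Ms4a1 B cells, so the members did not stand out by precursor genes. The cDC1 list, with its rule genes, summed to 1682 and 1550 against 1301 and 1114 CPM, and Irf8 was its most abundant gene. These sums were above the 726 CPM of classical monocytes and below the 2526 CPM of plasmacytoid dendritic cells. Ms4a1 B cells, at 1297 CPM, were above WT library 2 and below the other libraries. The cDC2 list, again with its rule gene Cd209a as the most abundant at 580 CPM, summed to 2429 and 2126 against 2500 and 1829 CPM, above the 793 CPM of classical monocytes, the 1672 of plasmacytoid dendritic cells and the 949 of Ms4a1 B cells. The rule chose on Cd209a, Xcr1 and Clec9a, so a place of the cDC1 and cDC2 sums above other populations was partly fixed in advance. Sums without these genes were not compared. Of 14 monocyte genes all but Vcan were detected, led by Lyz2 at 5517 CPM, and the list summed to 9720 and 11722 CPM in TLR9-/- members and to 9058 and 11150 CPM in WT members, below the 20629 CPM of classical monocytes and above the 4732 of plasmacytoid dendritic cells and the 3238 of Ms4a1 B cells. Of 15 genes of mature migratory dendritic cells 14 were detected, led by Tmem123 at 37.8 CPM, and the list summed to 150 and 192 CPM in TLR9-/- members and to 273 and 108 CPM in WT members, against 74.1 CPM in classical monocytes, 144 in plasmacytoid dendritic cells and 478 in Ms4a1 B cells. Its defining gene Ccr7, the receptor that guides such cells to lymph nodes, was seen in 1.13% of the members, and Fscn1 in 0.755%. Of 14 B lineage genes 8 were detected, led by Ighm at 196 CPM, and the list summed to 217 and 240 against 329 and 229 CPM, beside 156 CPM in monocytes and 13566 CPM in Ms4a1 B cells. Ms4a1 and Pax5 were among the 6 at 0, as were Cd79a and Cd79b by the rule.

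Clustering split the members into 9 groups, described here with no test because the same genes formed them. A cDC1-like cluster of 43 members was led by Id2, Irf8, Batf3 and Wdfy4, and 17 of its members had entered by Xcr1 or Clec9a. A cDC2-like cluster of 43 was led by Cd7, Klrd1, Cd209d and Cd300a, and 31 of these had entered by Cd209a. A cluster of 40 was led by Klrd1, Clec4b1, Clec10a and MHC class II genes. A cluster of 28 led by mitotic and histone genes, and also by Prss34, all of it from 1 cell, and another of 34 led by Mrc1, Clec10a, Irf7 and Isg15, stayed unnamed.

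Part of the members went against the label. A monocyte-like cluster of 34 was led by genes that included Apoe, Lyz2 and Fn1. A neutrophil-like cluster of 24 had a median of 9680.5 UMIs and of 21.1% of its UMIs on neutrophil genes, and 15 of the 24 were marked as doublets by Scrublet. An erythroid-like cluster of 10 had a median of 19.5% of its UMIs on erythroid genes, and 8 of the 10 were marked. A pDC-like cluster of 9 was led by Klk1, Cox6a2, Ly6d and Bst2, although every member lacked Siglech UMIs.

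Counted cell by cell, 11 and 11 TLR9-/- members and 8 and 9 WT members had over 1% of their UMIs on neutrophil, erythroid or basophil genes, which is 39 of 265. Their median depth was 8421 and 4588 UMIs in TLR9-/- libraries and 5001.5 and 8075 in WT libraries, against 3167, 4561.5, 2677 and 3244.5 for the rest. They held 99.2% to 99.8% of each library's UMIs of S100a8, S100a9, Camp, Ngp and Retnlg. The neutrophil list, all 10 genes of which were detected with S100a9 as the most abundant, summed to 35932 and 31528 CPM in TLR9-/- members and to 78977 and 80382 CPM in WT members. The erythroid list summed to 8510 and 756 against 7993 and 2926 CPM, and the basophil list to 1314 and 10.8 against 0 and 0 CPM. The fits between groups and genotypes, the counts of several gene lists and the cycling shares are given with and without these cells.

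**Figure D2:**
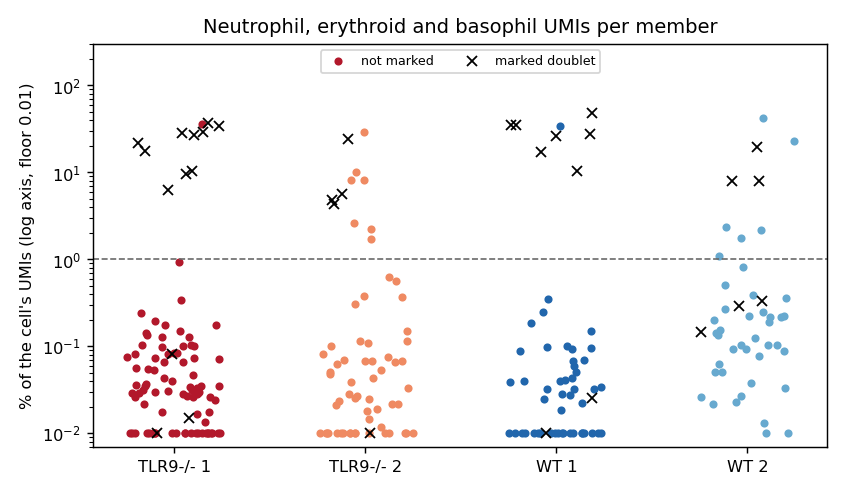
Percent of each member's UMIs on the neutrophil, erythroid and basophil lists (log axis, cells below 0.01 drawn at 0.01) by library, with crosses for cells marked as doublets and a dashed line at 1%. Above the line are 11, 11, 8 and 9 members, most of them crosses except in TLR9-/- library 2 and WT library 2, where 3 and 4 members lie between 0.5% and 2% and no gap parts them from the rest.

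Members made up 0.890% and 0.729% of the filtered cells of TLR9-/- mice, and 0.539% and 0.528% of those of WT mice. Both TLR9-/- libraries were above both WT libraries. The means were 0.810% ± 0.114 and 0.534% ± 0.00758 (SD, n = 2 each), a log2 ratio of 0.60, and the exact two-sided permutation test gave p = 0.333, the smallest p that 2 against 2 libraries allow. The difference did not hold when cells with a Cd79a or Cd79b UMI were left out of the denominator: the shares were then 1.55% and 1.20% against 1.30% and 1.27%, which overlap (log2 ratio 0.10, exact permutation p = 1). Among cells with at least 2000 UMIs, each thinned to 2000 before the rule was applied (6365 and 6312 TLR9-/- cells, 4675 and 4827 WT cells), the shares were 1.15% and 0.745% against 0.877% and 0.476%, which also overlap (log2 ratio 0.48, exact permutation p = 0.667).

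The members were split by the entry gene they carried. Xcr1 or Clec9a without Cd209a marked 13 and 10 TLR9-/- members and 7 and 8 WT members, and their share of the members was 14.5% ± 1.30 in TLR9-/- and 14.7% ± 3.35 in WT libraries (SD, n = 2 each). Since the rule genes define these groups, their shares are a description with no test. Among members of at least 2000 UMIs that kept an entry UMI when thinned to 2000 (73 and 40 TLR9-/-, 37 and 26 WT), the shares were 9.59% and 17.5% against 5.41% and 7.69%, from 7 and 7 against 2 and 2 cells, and did not overlap (log2 ratio 1.05). Cd209a without Xcr1 or Clec9a marked 62 and 35 against 31 and 22 members, or 59.2% ± 7.59 and 50.6% ± 5.36. Both kinds of entry UMI were found in 28 members.

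Members that entered by Flt3 or Zbtb46 alone made up 12.5% and 15.4% of the members in TLR9-/- libraries and 26.3% and 25.5% in WT libraries. The WT shares were higher in both libraries (25.9% ± 0.554 against 13.9% ± 2.04, log2 ratio -0.89). Leaving out the members over 1% on other lineages gave 14.1% and 16.7% against 24.5% and 21.1% (log2 ratio -0.57). After the same thinning to 2000 UMIs they were 8 of 73 and 6 of 40 TLR9-/- members and 11 of 37 and 9 of 26 WT members.

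**Figure D3:**
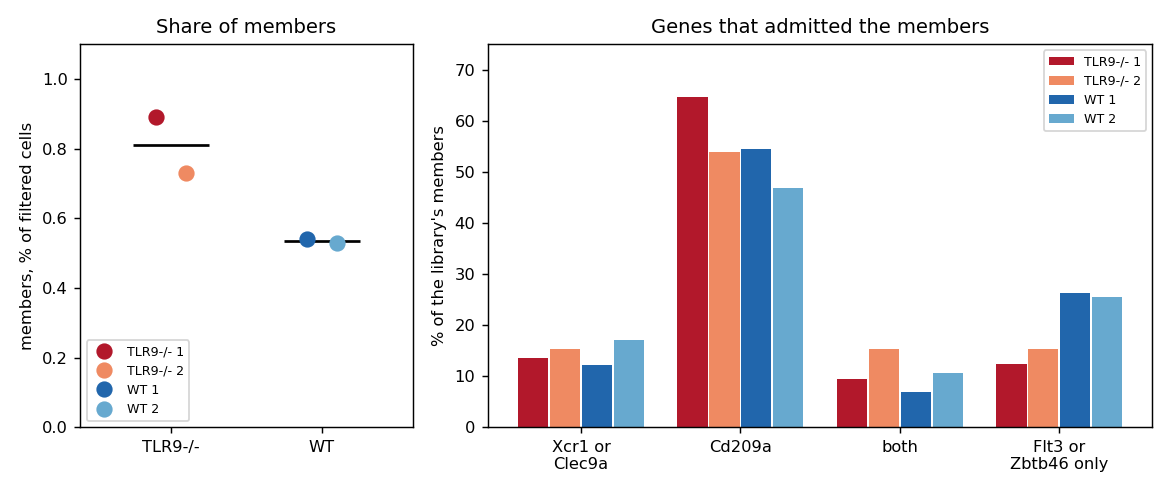
Left, the members as a percent of filtered cells in each library (points) with the mean of each genotype (lines). Right, the percent of each library's members (bars) that carried Xcr1 or Clec9a, Cd209a, both, or Flt3 or Zbtb46 only. The TLR9-/- points (0.890% and 0.729%) lie above the WT points (0.539% and 0.528%), and the Flt3 or Zbtb46 only bars are taller in WT.

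The Xcr1 or Clec9a group and the Cd209a group differed in genes the split did not use. Both groups came from the same 4 libraries, so library was a block in edgeR's quasi-likelihood test on summed UMIs. Of 970 genes tested, rule genes aside, 29 (2.99%) passed a Benjamini-Hochberg adjusted p of 0.05, 13 higher and 16 lower in the Xcr1 or Clec9a group, and each moved the same way in 4 of 4 libraries.

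Of 3 dendritic cell transcription factors tested, Irf8 and Id2 were higher. Irf8 (chr8:120736358-120756694, plus strand), which is required for cDC1, was at 1881, 1748, 859 and 1656 normalized CPM in the Xcr1 or Clec9a group of TLR9-/- libraries 1 and 2 and WT libraries 1 and 2, and at 139, 91.0, 172 and 123 in the Cd209a group. These values did not overlap, and the log2 ratio was 3.57 ± 0.32 (SE, adjusted p = 0.00227). Id2, an inhibitor of E proteins that holds dendritic cell precursors off the plasmacytoid path, was higher by 2.83 ± 0.45 on the log2 scale (adjusted p = 0.0268). Wdfy4, which cross-presentation by cDC1 requires, was higher by 2.34 ± 0.29, and Naaa, a lysosomal amidase of the cDC1 list, by 2.11 ± 0.32.

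Cst3 was high in both groups and rose further in the Xcr1 or Clec9a group, from 6132, 4753, 6400 and 5393 to 32033, 23604, 27725 and 16816 normalized CPM in the library order above (log2 ratio 2.11 ± 0.16, adjusted p = 0.00131). Aif1, an actin-binding protein of myeloid cells, was higher by 2.39 on the log2 scale and Tmsb10, a thymosin that binds actin, by 1.32. Cd37, a tetraspanin, Anxa6, an annexin, and Tagln2, another actin-binding protein, were higher by 1.07 to 1.88. Psmb8, a subunit of the immunoproteasome, passed as well, at 1.01.

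Of the 16 lower genes, 3 were on the cDC2 list and 2 on the monocyte list. Clec10a had 1, 1, 1 and 0 UMIs in the Xcr1 or Clec9a group and 83, 47, 42 and 24 UMIs in the Cd209a group (log2 ratio -4.29 ± 0.43, adjusted p = 0.00372). Tmem176a and Tmem176b, paired membrane proteins of the cDC2 list, were lower, at log2 ratios of -2.28 and -2.62. The chemokines Ccl6 and Ccl9 (log2 ratios -1.63 and -3.82), the fractalkine receptor Cx3cr1 (-3.00), the secreted Wfdc17 (-3.25) and S100a4 (-1.57) fell as well.

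Of the 4 interferon-stimulated genes tested, Ifitm3 and Ifi27l2a were lower and the other 2 did not pass, and the median log2 ratio of the 4 was -1.19 beside -0.00 over all 970 genes. Ifitm3 (chr7:141009586-141010770, minus strand), a membrane protein that restricts virus entry, was at 1279, 1367, 955 and 877 normalized CPM in the Xcr1 or Clec9a group and at 6575, 5995, 7175 and 5404 in the Cd209a group. Every library thus had several times more in the Cd209a group (log2 ratio -2.50 ± 0.18, adjusted p = 0.00131). Its neighbor Ifitm2, of the same family, had a log2 ratio of -2.87 ± 0.30 (adjusted p = 0.00391), and reads from such close paralogs can be divided between them. The promoters of these 2 genes are shown because they moved together and both hold the interferon-stimulated response element, searched as GAAA, any 2 bases and GAAA again, in capitals (RefSeq, GRCm38.p6, minus strand, at chr7:141010695-141010802 and chr7:140955938-140956067).
Ifitm3: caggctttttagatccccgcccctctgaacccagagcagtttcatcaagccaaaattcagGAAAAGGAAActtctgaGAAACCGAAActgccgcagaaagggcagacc
Ifitm2: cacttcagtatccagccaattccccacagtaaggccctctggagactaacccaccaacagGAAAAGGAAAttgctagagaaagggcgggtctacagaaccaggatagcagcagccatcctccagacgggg
The first match began 2 bases after the annotated start of Ifitm3 and 46 bases before that of Ifitm2. Searched on both strands, these letters were in 3 of 14 promoters of the lower genes (Ctss, Ifitm2 and Ifitm3). They were in 1 of 10 of the higher genes (Aif1) and in 3.44% of all 32851 promoters, whether or not their genes were tested. Ifitm2 and Ifitm3 are close paralogs and do not count as separate cases. No enrichment was tested and no binding was measured.

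By list, the Xcr1 or Clec9a group was higher in 3 of 4 cDC1 genes tested (median log2 ratio 2.22) and lower in 3 of 4 cDC2 genes (median -2.45). Of 9 monocyte genes, S100a4 and Ctss fell and 0 rose (median -1.01). Of 10 MHC class I loading genes only Psmb8 passed (median -0.07). None of 7 neutrophil genes passed, and all 7 had log2 ratios below 0 (median -0.93). Leaving out TLR9-/- library 1, TLR9-/- library 2 or WT library 2 reduced the 29 calls to 7, 8 and 10.

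Without the 39 members over 1% on other lineages, 156 of 737 genes tested passed (21.2%), 72 higher and 84 lower, and 26 of the 29 genes above were among them. The added calls included monocyte genes: 6 of 8 monocyte genes tested then fell in the Xcr1 or Clec9a group, among them Lyz2, lysozyme, and Ccr2. Ms4a6b and Cybb, the large subunit of the phagocyte oxidase, also fell, at log2 ratios of -3.50 and -3.00. In the MHC class I list the immunoproteasome subunits Psmb8 and Psmb9 rose, whereas the class I chains H2-K1 and H2-D1 and their partner B2m fell. Top2a, Birc5 and Hmgb2, which serve mitosis and chromatin, rose, as 3 of 4 genes tested of the list for G2 and mitosis. These genes were named after their values were seen.

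**Figure D4:**
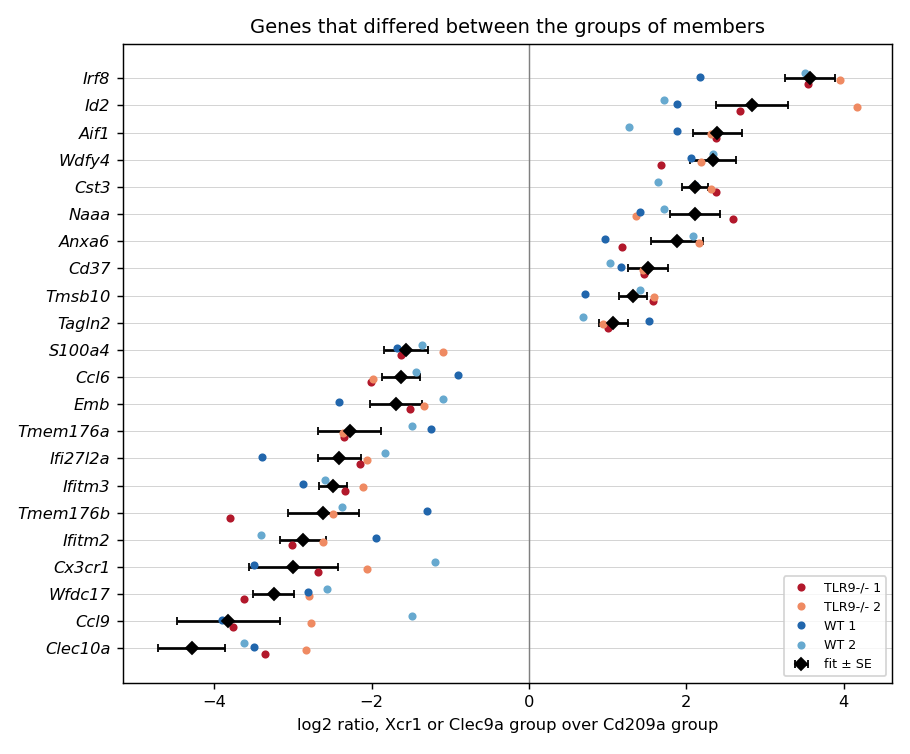
Log2 ratio of the Xcr1 or Clec9a group over the Cd209a group for 22 genes that passed, as the fitted value ± SE (diamonds) and the ratio within each library (colored points). All library points lie on the side of the fitted value, from Irf8 at 3.57 to Clec10a at -4.29.

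Cycling was read from the list of G2 and mitosis genes after each member was thinned to 1000 UMIs. At least 3 such UMIs were found in 15 of 36 members of the Xcr1 or Clec9a group (41.7%, 95% exact binomial interval 25.5% to 59.2%) and in 24 of 145 of the Cd209a group (16.6%, 10.9% to 23.6%). By library, cycling members of the Xcr1 or Clec9a group numbered 5 of 13, 2 of 10, 4 of 6 and 4 of 7, and those of the Cd209a group 9 of 62, 8 of 33, 3 of 30 and 4 of 20. The order was thus Xcr1 or Clec9a above Cd209a in 3 libraries and below it in TLR9-/- library 2. The intervals cover counting error only. The members over 1% on other lineages were 9 of the 38 in the Xcr1 or Clec9a group and 20 of the 150 in the Cd209a group, and without them 11 of 27 (40.7%, 22.4% to 61.2%) and 11 of 125 (8.80%, 4.48% to 15.2%) were cycling. Between genotypes, 17.7% and 22.6% of TLR9-/- members and 17.0% and 33.3% of WT members passed this mark, which overlap (exact permutation p = 1). When the members over 1% were left out the shares were 12.9% and 15.7% against 11.1% and 22.9%, from 11 and 8 against 5 and 8 cells, and overlapped as well.

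Of the 49 members admitted by Flt3 or Zbtb46 alone, 16 fell in the cDC1-like cluster and 13 in the monocyte-like cluster. Against the Cd209a group, which also served the comparison above, 7 of 854 genes (0.82%) passed in edgeR's quasi-likelihood test with library as a block. Irf8 was at 2026, 1790, 972 and 460 normalized CPM against 144, 93.6, 175 and 131, which do not overlap (log2 ratio 3.27 ± 0.38, adjusted p = 0.00447). Id2, Aif1 and Cst3 were also higher, by 2.53, 2.37 and 1.32 on the log2 scale, and Nkg7, a granule protein, and Ifitm2 were lower, at log2 ratios of -3.84 and -0.94. Prtn3, a neutrophil granule protease, passed at -4.67 but with 0 UMIs in both groups of WT library 1, and was named after its value was seen.

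Leaving out TLR9-/- library 2 ended all 7 calls (0 of 867 genes in edgeR's quasi-likelihood test, with 33 at an unadjusted p under 0.05). Without the 39 members over 1% on other lineages, 14 of 621 genes passed (2.25%), with Irf8, Id2 and Cst3 higher and Ifitm3, Ifitm2, Clec10a, Ccl6 and F13a1 lower among them. Irf8, Id2 and Cst3 were thus higher with and without these cells, as Ifitm2 was lower, whereas Aif1, Nkg7 and Prtn3 were too low to be tested without them.

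Between genotypes, 6 of 3688 genes (0.163%) passed in edgeR's quasi-likelihood test on the members' summed UMIs, with 165 at an unadjusted p under 0.05. Retnlg and BC018473 rose in TLR9-/- members, and S100a8, S100a9, Camp and Ngp fell. All but BC018473 are neutrophil genes, and their UMIs lay almost wholly in the 39 members over 1% on other lineages.

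S100a9 (chr3:90692632-90695721, minus strand), a subunit of the calprotectin dimer of neutrophils, had 4964 and 4031 UMIs in TLR9-/- libraries and 5941 and 6977 in WT libraries. After normalization these were 13260 and 11459 against 34350 and 32086 CPM, with no overlap (log2 ratio -1.43 ± 0.16, adjusted p = 0.00515). Yet the single richest member held 32.7%, 46.6%, 49.7% and 45.8% of each library's S100a9 UMIs. Camp, the cathelicidin of secondary granules, Ngp, another secondary granule protein, and S100a8, the partner of S100a9, fell by 1.44, 1.29 and 1.28 on the log2 scale. Without marked doublets the log2 ratios were -2.53 for S100a9, -1.98 for Camp, -2.77 for Ngp and -2.28 for S100a8, and all 4 passed, whereas with at least 20 MHC class II UMIs per member none of the 4 did (adjusted p from 0.102 for S100a9 to 0.33 for S100a8), at log2 ratios of -1.27, -1.30, -1.19 and -1.17 in the same order. Retnlg, a resistin-like protein of mature neutrophils, had 99 and 153 UMIs against 2 and 6 (log2 ratio 4.07 ± 0.45, adjusted p = 0.00515), and all 99 of TLR9-/- library 1 came from 1 cell, as did 114 of the 153 of library 2. It still passed with at least 20 MHC class II UMIs per member (log2 ratio 4.09, adjusted p = 0.0488). Without marked doublets Retnlg was not called, and the 1 gene called higher there was BC018473. Without the members over 1% on other lineages, Retnlg, Camp and Ngp were too low to be tested, and S100a8 and S100a9 had log2 ratios of -1.61 and -1.12, overlapped between genotypes and did not pass (adjusted p = 0.587 and 0.852).

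BC018473 (chr11:116752167-116759373, plus strand), annotated as an antisense transcript, was spread over more members. It had 87 and 40 UMIs in 34 and 26 TLR9-/- members and 0 in both WT libraries, so it was at least 23.7-fold higher in TLR9-/- members, against a floor of 3 UMIs over the WT group (adjusted p = 0.0134). With at least 20 MHC class II UMIs per member the adjusted p was 0.249, at a fitted log2 value of 8.43 beside 8.60 over all members, which depend on the prior count and are no measure of a fold. Without the members over 1% it had 33 and 30 UMIs against 0 and 0, at least 10.2-fold higher (adjusted p = 0.0228). It was also high in the TLR9-/- libraries of other populations: classical monocytes had 536 and 545 UMIs against 0 and 0, plasmacytoid dendritic cells 410 and 792 against 2 and 0, and Ms4a1 B cells 204 and 784 against 0 and 0. Gm6594, a processed pseudogene, had 17 and 20 UMIs against 0 and 0 in the members, at least 6.92-fold higher against the same floor, and did not pass (adjusted p = 0.127). With a replicate block it did pass in edgeR's quasi-likelihood test (adjusted p = 0.010). Its UMIs were 494 and 594 against 0 and 0 in classical monocytes and 101 and 241 against 0 and 0 in plasmacytoid dendritic cells. Ms4a1 B cells had 78 and 264 against 0 and 0.

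Without the members over 1% on other lineages, 2 of 2747 genes (0.0728%) passed: BC018473 and Sh3bgrl3. Sh3bgrl3, a small thioredoxin-like protein, was at 1210 and 1402 normalized CPM in TLR9-/- members and at 2898 and 2912 in WT members, with no overlap (log2 ratio -1.15 ± 0.19, adjusted p = 0.0465), whereas over all members its adjusted p was 0.124. Arsb, arylsulfatase B, had 57 and 63 UMIs against 9 and 7 (log2 ratio 1.85 ± 0.36, adjusted p = 0.0913), and Fuca1, a fucosidase, 50 and 49 against 6 and 8 (log2 ratio 1.76 ± 0.37, adjusted p = 0.122). Cyp4f18, a cytochrome P450 that inactivates leukotriene B4, had 1 and 3 UMIs against 10 and 19 (adjusted p = 0.0913). The genotypes did not overlap in the normalized CPM of these genes, but none of them passed in this fit. With a replicate block, Fuca1 and Cyp4f18 did pass in edgeR's quasi-likelihood test (adjusted p = 0.0298 and 0.0185). No label ties a replicate number to an experiment. Over all members 1500011B03Rik, with 33 and 29 UMIs against 3 and 3, was also among the nearest (adjusted p = 0.124, and 0.0248 with the replicate block).

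**Figure D5:**
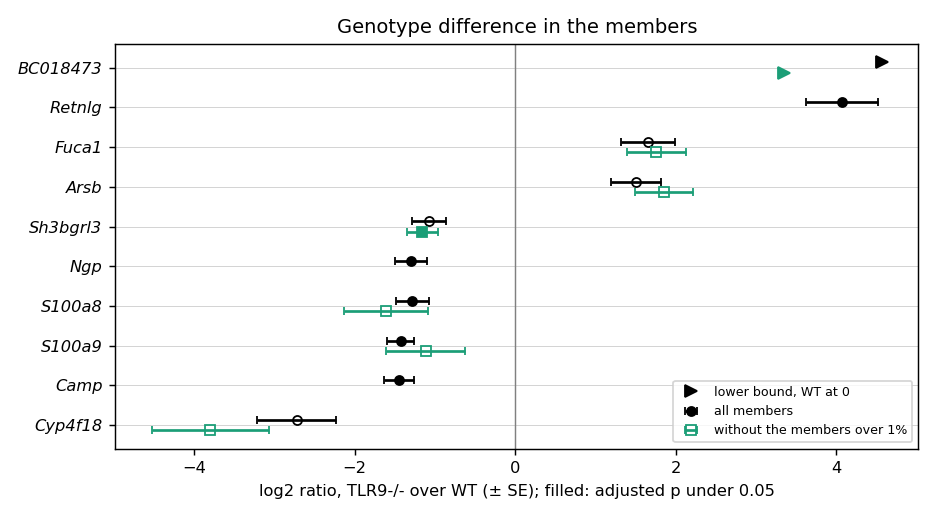
Log2 ratio of TLR9-/- over WT members ± SE in all members (circles) and without the members over 1% on other lineages (squares), filled where the adjusted p was under 0.05, with triangles for the lower bounds of BC018473. Retnlg, Camp and Ngp have no square because they were not tested there, and only BC018473 and Sh3bgrl3 pass in the remaining members.

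Of the 27 gene lists, rule genes aside, the neutrophil list alone held calls between genotypes (5 of 9 genes tested), and the other 26 held 0 in edgeR's quasi-likelihood test. Since only 0.163% of all genes were called, 0 calls in a list of this size is no result about the list. Of 8 MHC class II presentation genes tested, 0 passed, at a median log2 ratio of 0.07 beside 0.01 over all genes. Of the 8, 7 had a log2 ratio above 0, and without the members over 1% on other lineages 2 of 8 did (median -0.05). H2-DMa, the partner of H2-DMb1, was at 663 and 713 CPM against 612 and 466, and Ctss, the protease that trims the invariant chain, at 626 and 705 against 617 and 586. The WT members were below the TLR9-/- members in both genes, and neither gene passed. Of the same list, Cst3 was at 10172 and 7835 against 10616 and 6417 CPM, and H2-DMb1 at 547 and 516 against 555 and 320, both with overlap. These are values of all members. With 2 libraries per genotype, the order of H2-DMa and Ctss is a description and no result.

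Of 9 cDC1 genes tested 0 passed (median 0.33) and of 11 cDC2 genes 0 passed (median -0.07), with medians of 0.38 over 7 and -0.12 over 10 genes without the members over 1%. Irf8 was at 528 and 575 CPM in TLR9-/- members and at 365 and 387 in WT members, without overlap and without passing, and Batf3 at 133 and 121 against 123 and 99.7, with overlap. Of 19 interferon-stimulated genes tested 0 passed, 14 with a log2 ratio below 0 and 5 above (median -0.26), and without the members over 1% 0 of 16 passed, 15 below 0 and 1 above (median -0.36). Irf7, a driver of type I interferon production, was at 78.9 and 132 CPM against 185 and 99.7, and Ifitm3 at 4103 and 3789 against 4367 and 3470, both with overlap. Genes of the plasmacytoid dendritic cell list also lay mostly below 0: 8 of 9 tested did (median -0.48), and 0 passed. Without the members over 1%, 8 of 8 did (median -0.61), and 0 passed. That list summed to 848 and 745 CPM in TLR9-/- members and to 1486 and 794 CPM in WT members, which overlap.

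Toll-like receptor genes were sparse in the members. Of 28 genes of the pathway list 27 were detected and 7 could be tested, with 0 passing (median 0.06). Tlr3, the endosomal receptor for double-stranded RNA that cDC1 express, was at 32.1 and 16.2 CPM in TLR9-/- and at 46.3 and 20.8 CPM in WT members, against a mean of 0.249 CPM in all other cells. Unc93b1, the chaperone that carries endosomal Toll-like receptors, was at 372 and 402 against 293 and 416. Tlr7 was seen in 2.26% of the members and Tlr9 in 1.51%, beside 1.53% of Ms4a1 B cells with a Tlr9 UMI, and with so few UMIs in 265 members differences in these receptors were not detectable.

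Fos and Jun, of the early response list, overlapped between genotypes. Fos was at 335 and 64.8 CPM in TLR9-/- and at 190 and 70.6 CPM in WT members, and Jun at 138 and 56.7 against 92.6 and 33.2, so libraries numbered 1 were higher in both genotypes. Of 12 genes of the AP-1 and early response list tested 0 passed, 11 with a log2 ratio above 0 and 1 below (median 0.61), and without the members over 1% 0 of 11 passed, 9 above 0 and 2 below (median 0.24). The list summed to 3040 and 1404 CPM in TLR9-/- members and to 2001 and 1126 CPM in WT members, which overlap, and of 7 dissociation and stress genes 0 passed (median 0.39). The part of tissue handling in these values was not tested.

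Whether the genotype effect in the members differed from that in other cells of the same libraries was tested as an interaction of population and genotype in edgeR's quasi-likelihood test, with library as a block. Against classical monocytes, 5 of 8481 genes (0.059%) passed. Ccl5, a chemokine for T cells, had 1 and 12 UMIs in TLR9-/- members and 31 and 13 in WT members, while monocytes had 862 and 1004 against 321 and 83 (difference of log2 ratios -3.31 ± 0.51, adjusted p = 0.0232). In normalized CPM the WT members were higher in both libraries, and the monocytes of both genotypes overlapped. S100a9 and Serpinb1a, both of neutrophils, were more negative in the members, and Car2, an erythroid carbonic anhydrase, and Gm42418, a transcript that overlaps ribosomal RNA, were more positive. The monocytes had been chosen to lack Camp, Ngp and Ltf UMIs, which the members had not. Without the members over 1% on other lineages 33 of 8435 genes passed: Ccl5 (-2.24), Car2 (5.20) and Gm42418 (0.74) were among them, S100a9 (-0.50) was not, and Serpinb1a had the opposite sign (0.61).

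Against plasmacytoid dendritic cells, 18 of 8096 genes (0.222%) passed, 6 more positive and 12 more negative in the members. From the neutrophil list 6 genes were more negative (S100a8, S100a9, Camp, Ngp, Ltf and Lcn2), with differences of log2 ratios from -1.31 to -1.70. Retnlg, of the same list, was more positive. From the basophil list 2 genes were more positive, Mcpt8 and the protease Prss34. All 408 of the members' Prss34 UMIs were in 1 cell of TLR9-/- library 1. Without the members over 1% on other lineages 1 of 8042 genes passed, and none of the 18.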

How the data were processed

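Raw UMI counts per gene and cell were used as deposited. Per the labels and the matrix headers, the authors made them with Cell Ranger 3.0.1 and STAR on mm10, and used Seurat 2.3.4 afterwards. The authors counted 5′ reads, so a count says nothing of the rest of a transcript, and free RNA and doublets remain in it. Of 40545 deposited cells, 39167 had 200 to 10000 genes and at most 10% mitochondrial UMIs. The 265 members, and 27 gene lists, were chosen with earlier results of these data known. Scrublet marked doublets, which were kept in the main results. In 3 libraries its automatic threshold marked at most 0.0186% of cells, so the cells with the top scores were marked there, at the rate that cell loading predicts.

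Cells are not replicates, so UMIs were summed per library (mouse) and tested with edgeR 4.0.16 in R 4.3.3 (TMM, filterByExpr, quasi-likelihood, Benjamini-Hochberg adjustment, threshold 0.05), checked on simulated counts. Shares of members and of cycling members were tested with exact two-sided permutation tests. Members were clustered with scanpy 1.11.5 (1000 variable genes, 20 components, Leiden resolution 1). A cluster was named only where at least 3 of its 10 leading genes came from 1 marker list. Classical monocytes had at least 2 Ly6c2 UMIs with Ccr2 or F13a1 and no Camp, Ngp or Ltf, and plasmacytoid cells had at least 2 Siglech UMIs.

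Genes were named by rule. For genotype and interactions these were up to 12 per direction past the threshold, in the same direction in both same-numbered pairs and with at least 30 UMIs, or else the 5 with the smallest p. For groups of members they were up to 12 per direction in the same direction in 4 libraries. The 20 leading genes had at least 50 CPM in every library. A few genes that these rules name are not reported here. Alternatives were DESeq2 1.42.0, other size factors, no filter, a replicate block, each library left out, other limits, doublets left out and, added after seeing the data, the members over 1% on other lineages left out.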

Additional observations from a re-analysis of the deposited data

Results flagged for a closer look

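Each gene here had a genotype effect in the members that differed from the effect in another population of the same libraries, by an interaction term in edgeR's quasi-likelihood test with Benjamini-Hochberg adjustment. Values are differences of log2 ratios (TLR9-/- over WT, members minus the other population). The monocytes were chosen to lack Camp, Ngp and Ltf UMIs, and 39 of 265 members held nearly all of the members' neutrophil UMIs. Values without these 39 members are given beside the calls.

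Against classical monocytes the differences were -0.85 for S100a9, -3.31 for Ccl5, -1.39 for Serpinb1a, 2.22 for Car2 and 0.65 for Gm42418. Car2 had 90, 14, 11 and 29 UMIs in the members of TLR9-/- libraries 1 and 2 and WT libraries 1 and 2, so TLR9-/- library 1 held most of them. Gm42418 had 1126, 6331, 462 and 2377 UMIs, and the libraries numbered 2 were higher in both genotypes. Without the 39 members S100a9 (-0.50) and Serpinb1a (0.61) no longer passed, and Ccl5 (-2.24), Gm42418 (0.74) and Car2 did, although Car2 had too few UMIs there to be tested between genotypes in the members alone. With 1 library left out S100a9 passed in 4 of 4 fits. Car2 ranged from 1.51 to 2.97 and did not pass without TLR9-/- library 1, WT library 1 or WT library 2 (adjusted p = 1, 0.0785 and 0.174). Gm42418 did not pass without TLR9-/- library 2 (0.12) or WT library 2 (0.444), or with size factors by relative log expression (0.0532). Ccl5 ranged from -5.76 to -2.57 and did not pass without WT library 1 (0.104) or WT library 2 (0.299), and Serpinb1a passed in 1 of 4 such fits.

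Against plasmacytoid dendritic cells the more negative genes were S100a8 (-1.50), S100a9 (-1.62), Ngp (-1.62), Camp (-1.63), Wfdc21 (-1.48), Ltf (-1.70), Lcn2 (-1.31) and Serpinb1a (-1.69), which neutrophils express, and Anxa1 (-0.94), Chil3 (-0.79), Prdx5 (-0.81) and Igkc (-4.18). Igkc, an immunoglobulin light chain, had 1, 1, 11 and 1 UMIs in the members. The more positive genes were Retnlg (4.04), the basophil genes Prss34 (11.99) and Mcpt8 (10.25), Stfa1 (12.55), Sparc (6.19) and Gm42418 (0.69). Without the 39 members none of these 18 genes passed, and Retnlg (-2.99), Prss34 (-0.18), Wfdc21 (4.73), Serpinb1a (0.31), Chil3 (3.21) and Prdx5 (0.058) had the opposite sign. Stfa1 had 13, 1, 0 and 0 UMIs and Sparc 5, 2, 1 and 1 UMIs in the members, while 743 of the Sparc UMIs of plasmacytoid dendritic cells came from WT library 1, so these fitted values rest on very few UMIs and are no measure of a fold.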

How the results depend on the processing

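Most values for single genes kept their direction and side of the threshold: 405 were the same, 30 stronger, 123 weaker and 10 reversed. Of the counts and shares 52 were the same, 27 moved and 5 reversed. All 27 that moved were counts of calls, and a share was taken as the same by its sign alone. The member share among cells without Cd79a and Cd79b UMIs, at a log2 ratio of 0.10, is therefore among the same. Genes called between genotypes (6) became 30 with no filter on low counts, 1 at 20 or more MHC class II UMIs, 2 without the members over 1% on other lineages and 15 to 46 with 1 library left out (21 and 15 without TLR9-/- libraries 1 and 2, 40 and 46 without WT libraries 1 and 2). Calls against monocytes (5) became 19 with no filter, 33 without those members and 4 to 18 with 1 library left out; calls against plasmacytoid dendritic cells (18) became 28, 1 and 27 to 51. Calls between the Xcr1 or Clec9a and Cd209a groups (29) became 122, 156 and 7 to 33, and between the Flt3 or Zbtb46 only and Cd209a groups (7) 65, 14 and 0 to 15, with 12 without doublets and 4 by DESeq2. Without the members over 1%, the difference reversed for Serpinb1a (0.61) and Chil3 (3.23) against monocytes, and for Prss34 (-0.18), Retnlg (-2.99), Serpinb1a (0.31), Wfdc21 (4.73), Prdx5 (0.058) and Chil3 (3.21) against plasmacytoid dendritic cells. With 1 library left out, Hbb-bt against monocytes ranged from -0.28 to 2.61 and Sparc against plasmacytoid dendritic cells from -0.66 to 7.22. The log2 ratio of the Xcr1 or Clec9a share was 1.05 after thinning to 2000 UMIs and -0.23 to 0.24 with 1 library left out, and that of cycling members was 0.29 at 5 or more UMIs and -0.73 to 0.25 with 1 library left out; the cause of these changes was not tested. With a replicate block, 22 genes were called between genotypes by edgeR's quasi-likelihood test, among them Fuca1, Cyp4f18, Gm6594 and 1500011B03Rik (adjusted p = 0.0265, 0.00931, 0.010 and 0.0248); without the members over 1% it called 8, among them Fuca1 and Cyp4f18 (0.0298 and 0.0185). The log2 ratios of the member, Xcr1 or Clec9a and Flt3 or Zbtb46 only shares were 0.59, -0.0024 and -0.90. Same-numbered libraries deviated together with a correlation of 0.183 over 3688 genes, but with 2 pairs and no label that ties a number to an experiment they share only a number. With 2 libraries per genotype no exact test can go below 0.333. The p-values of the genotype fits rest on the spread between these 4 mice. Those of fits with library as a block rest on the spread of differences within libraries.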
